A study of Drosophila melanogaster with 2 samples.

Results

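Nuclear tRNA genes were examined for binding of Cnc (cap'n'collar), the fly relative of the Nrf2 stress factors, in 2 biological replicates of 1 group. The material was whole wandering larvae of the third instar, with both sexes pooled, of a transgenic Drosophila melanogaster line with GFP fused to the C terminus of Cnc. An antibody to GFP was used for the precipitation, although one label field gives the antibody as cnc. Whole larvae mix many cell types, and the peaks do not tell in which of them a site was bound. The members were all genes of biotype tRNA in the Ensembl annotation on chromosomes 2L, 2R, 3L, 3R, 4 and X, 290 of 18164 annotated genes. None of the 290 lay on chromosome 4. A gene was counted as having a summit when the highest point of a deposited peak fell within 1000 bp of its start, in either direction. The lists were made by the authors: 6153 reproducible peaks, kept by their irreproducible discovery rate (IDR), a pooled list of 30000 peaks and a list for each replicate. With 1 group, no condition was compared with another, and every share given is a description without a test.

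Transfer RNAs carry amino acids to the ribosome, and their genes are short and dispersed, often in tandem groups of near-identical copies. RNA polymerase III (Pol III) transcribes them from a promoter inside the gene. The factor TFIIIC recognises the internal A and B boxes and places TFIIIB, of which Brf and Bdp1 are parts, just upstream of the start. In flies the TBP relative Trf works with Brf at tRNA genes. Genes are named here by isotype, the amino acid carried, followed by the anticodon and copy numbers.

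The sequences of 5 tRNA genes are shown because the peaks beside them are described one by one, and because the internal promoter lies in these letters and the summits lay outside them. Capitals mark matches to the A box, in its usual degenerate form, and to the B box, as the core GTTCNANNC or a stricter consensus that contains it. Matches that overlapped were joined. The sequences are from the RefSeq Release 6 genome (dm6), given 5′ to 3′ along the gene. They lie at chrX:3427452-3427523 (minus strand), chr3R:8669081-8669174 (minus), chr2L:8290727-8290799 (plus), chr3L:3096369-3096440 (plus) and chr3R:30248616-30248695 (minus).

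tRNA:Gln-TTG-2-1: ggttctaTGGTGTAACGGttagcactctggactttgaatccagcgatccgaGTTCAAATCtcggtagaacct
tRNA:Tyr-GTA-1-8: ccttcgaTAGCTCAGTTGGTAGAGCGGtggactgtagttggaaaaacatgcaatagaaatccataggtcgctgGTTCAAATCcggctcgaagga
tRNA:Lys-TTT-1-1: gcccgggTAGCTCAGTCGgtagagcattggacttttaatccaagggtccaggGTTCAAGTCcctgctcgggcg
tRNA:Cys-GCA-1-3: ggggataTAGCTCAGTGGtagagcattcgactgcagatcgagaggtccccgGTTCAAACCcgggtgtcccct
tRNA:Leu-TAG-1-2: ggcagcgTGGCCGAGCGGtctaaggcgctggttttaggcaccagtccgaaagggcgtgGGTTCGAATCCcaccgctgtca

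Searched along the sense strand, the B box core GTTCNANNC was found in 271 of 290 tRNA genes (93.4%) and the degenerate A box in 270 (93.1%). The B box core lay in 91.0% of the 67 genes with a reproducible summit and in 94.2% of the 223 without, and the degenerate A box in 94.0% and 92.8%. The stricter B box consensus was in 53.7% of genes with a reproducible summit and in 48.9% of those without. A stricter A box consensus lay in 8.96% and 6.28%, 20 of 290 genes in all. Split by the pooled list, the B box core was in 92.4% of the 211 genes with a summit and in 96.2% of the 79 without, while the stricter consensus went the other way, with 52.6% and 43%. The degenerate A box was in 94.3% and 89.9%.

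Within 1000 bp of the start, tRNA genes had a reproducible summit less often than protein-coding genes, and a pooled-list summit more often. Of 290 tRNA genes, 67 (23.1%, exact 95% interval 18.4 to 28.4) had a reproducible summit, against 4205 of 13945 protein-coding genes (30.2%) and 26.4% of all annotated genes, measured at 1 start per gene. In the pooled list 211 tRNA genes (72.8%, interval 67.2 to 77.8) had a summit, against 7640 protein-coding genes (54.8%) and 51.9% of all annotated genes. Each replicate gave nearly the same share: 209 tRNA genes (72.1%) in replicate 1 and 207 (71.4%) in replicate 2, against 56.0% and 55.4% of protein-coding genes. The shares over all annotated genes were 52.8% in replicate 1 and 52.4% in replicate 2. The intervals cover counting error over genes alone, and tRNA genes that share a peak are not independent. Of all bases of the 6 chromosomes, 28.5% lay within 1000 bp of a pooled summit and 7.85% within that distance of a reproducible one.

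**Figure D1:**
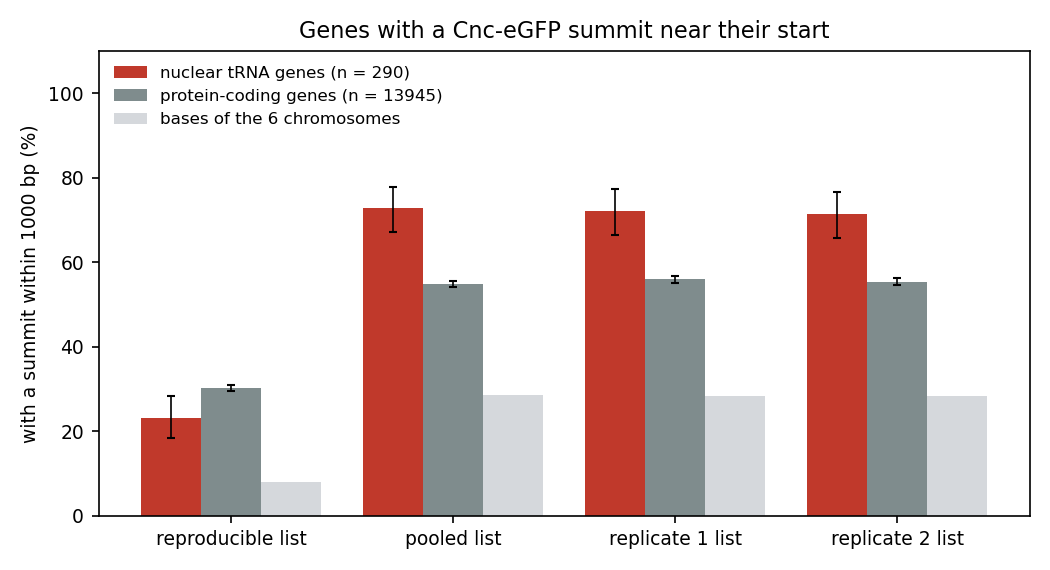
Bars give the percentage of nuclear tRNA genes, of protein-coding genes and of bases that lie within 1000 bp of a summit, for each of the 4 peak lists, with exact 95% intervals over genes for both gene classes. tRNA genes are below protein-coding genes in the reproducible list (23.1% against 30.2%) and above them in the pooled list and in both replicate lists.

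The 6153 reproducible peaks were also the 6153 highest of the pooled list. The turn between the lists could thus come only from lower pooled peaks, and the ranks just below held most of it. The signal value is the authors' own peak score, whose scale is unknown, and was ranked and summarised within a list alone. Where values of both replicates are given side by side, a common scale is not known. Taking the highest pooled peak of each gene, 69 tRNA genes (23.8%) had it at ranks 6154 to 12000, against 10.5% of protein-coding genes, and 40 (13.8%) at ranks 12001 to 18000, against 5.80%. The median rank of that peak was 9667 over the 211 tRNA genes and 5268 over the 7640 protein-coding genes. Among genes with no reproducible summit, 144 of 223 tRNA genes (64.6%) and 3435 of 9740 protein-coding genes (35.3%) had a pooled summit. Both differences depended on the window, and the pooled excess also on how deep the list was read. In the reproducible list the shares within 250 bp were 7.59% for tRNA genes and 21.9% for protein-coding genes, within 500 bp they were 14.8% and 26.3%, and within 2000 bp the direction turned, with 36.2% and 35.4%. In the pooled list the direction turned within 100 bp, with 11.0% for tRNA genes and 18.1% for protein-coding genes. Within 250 bp the pooled shares were 37.6% and 37.3%, and within 500 bp they were 61.7% and 47.6%. With the highest 12000 pooled peaks alone they were 46.9% and 40.6% at 1000 bp. When 1 tRNA gene stood for each group of neighbours, as defined further on, 92 of 144 (63.9%) had a pooled summit.

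Presence in both replicate lists was counted by gene and by peak. At a gene, the summits of the 2 replicates need not belong to the same peak. A summit was present in both replicate lists at 187 tRNA genes (64.5%), in replicate 1 alone at 22, in replicate 2 alone at 20 and in neither at 61. Of protein-coding genes, 48.2% had a summit in both. Among the 223 tRNA genes with no reproducible summit, 120 (53.8%) had a summit in both replicate lists. The same share over other genes without a reproducible summit is not given here. Of the 223 distinct pooled peaks near tRNA genes, 145 (65.0%) overlapped a peak of both replicates by at least 1 bp, against 60.2% of all pooled peaks. Pooled peaks that overlapped each other were counted apart. Outside the reproducible list these shares were 57.5% of 179 peaks near tRNA genes and 50.6% of all 23847 such peaks. The number of tRNA genes without a reproducible summit and the number of these pooled peaks are both 223 by coincidence.

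Summits lay on both sides of tRNA genes and rarely within them. Of the 223 pooled summits, 30 were 100 to 200 bp upstream of the nearest tRNA start and 24 within 100 bp upstream, while 7 fell in the first 100 bp downstream, where the gene itself lies, and 26 in the next 100 bp. Per kb of sequence, the gene bodies held 0.182 pooled summits (4 in 22026 bases), against 0.822 in the first 100 bp outside the genes, 1.01 in the next 100 bp and 0.359 at 500 to 1000 bp. The density over all 6 chromosomes was 0.224 per kb. In replicate 1 the bodies held 0.409 per kb against 1.16 in the first 100 bp outside, and in replicate 2 they held 0.272 against 0.661. No reproducible summit lay inside a tRNA gene, although reproducible peaks, most often 364 bp wide, overlapped 15 of these genes.

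Protein-coding starts gave another profile. Of pooled summits near tRNA starts, 3.14% lay in the first 100 bp downstream and 10.8% in the 100 bp upstream, against 9.58% and 14.4% of those near protein-coding starts. The shares stood high on both sides of tRNA genes, while those near coding genes had 1 upstream mode. Within 500 bp, 39 tRNA genes had a pooled summit on both sides, 75 upstream alone and 65 downstream alone. Summits on both sides can belong to overlapping peaks. At tRNA:Glu-CTC-3-8 the pooled peaks 1401213 to 1401576 and 1401422 to 1401785 overlapped, and both covered the gene. The numbers with a summit on both sides were 56 in replicate 1 and 34 in replicate 2. Of the 223 pooled summits, 113 had more than 1 tRNA start within 1000 bp, so a summit downstream of a gene can lie upstream of its neighbour. The count on both sides is not given for coding genes.

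**Figure D2:**
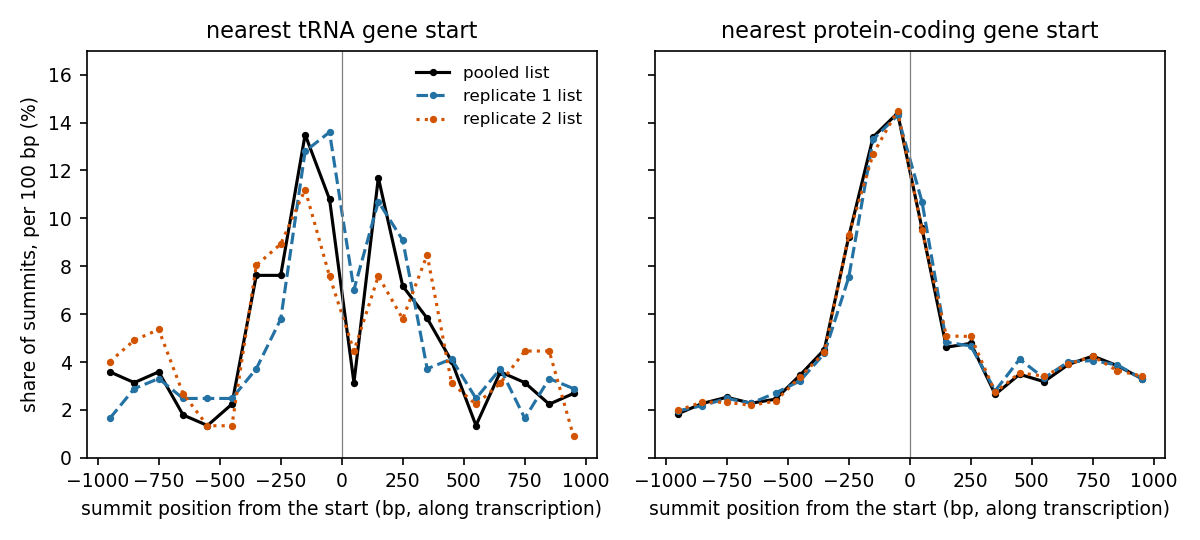
The share of summits per 100 bp is plotted against their signed position from the nearest tRNA start (left) and the nearest protein-coding start (right), for the pooled list and both replicate lists. At tRNA genes the pooled line drops to 3.14% in the first 100 bp downstream between flanks of 10.8% and 11.7%, and both replicates are lower in that bin (7.02% and 4.46%) than in either neighbouring bin, while at coding genes the line falls from a single upstream mode.

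Genes with identical copies were set apart, because reads lying wholly within such a gene could come from any copy, and how they were treated is unknown. The 290 genes had 95 distinct sequences, and 238 genes had at least 1 identical copy, with up to 13 genes per sequence. Sequences were compared whole, introns included, so genes that differ in an intron alone count as occurring once. The 52 genes whose sequence occurred once had 0.224 pooled summits per kb in their bodies (1 in 4470 bases) against 0.771 in the first 100 bp outside. In the 238 copied genes the values were 0.171 (3 in 17556 bases) and 0.832. In replicate 2 the bodies of single-sequence genes held 0.447 per kb, from 2 summits, against 0.578 outside, so the gap there was small. Nearby summits were counted for the same classes. Among copied genes, 54 of 238 (22.7%) had a reproducible summit and 176 (73.9%) a pooled one. Among single-sequence genes the numbers were 13 of 52 (25.0%) and 35 (67.3%). The part of read placement in the low density inside genes was not tested.

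**Figure D3:**
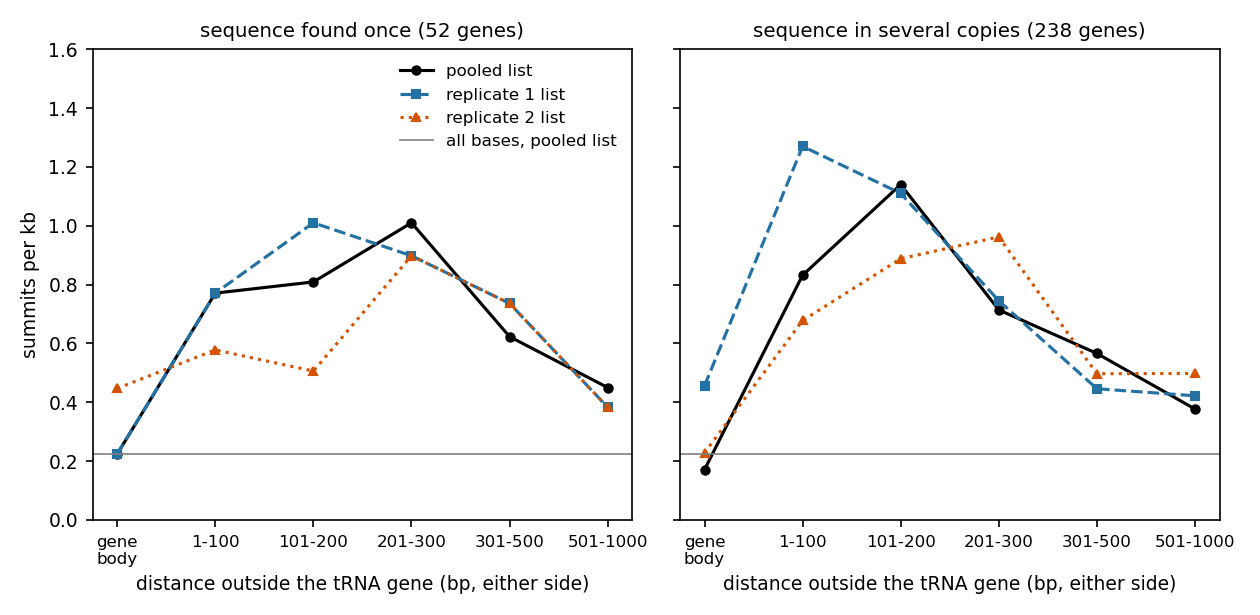
Summits per kb are shown in the bodies of tRNA genes and in zones outside them on either side, for genes whose sequence occurs once (left) and in several copies (right), in the pooled list and both replicate lists, with a grey line at 0.224 per kb for all bases. Bodies of single-sequence genes hold 0.224 pooled summits per kb and those of copied genes 0.171, both below the zones up to 300 bp outside.

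The 67 tRNA genes with a reproducible summit were served by 44 distinct peaks, and 20 of these had more than 1 tRNA start within 1000 bp. Of the 67 genes, 45 shared a peak with another tRNA gene and 4 had more than 1 summit. The 44 peaks were modest in height. Their signal values ran up to 1200.1 with a median of 289.7 and a median rank of 4004, against a median of 353 over all reproducible peaks, and 16 of 44 (36.4%) were in the upper part of the list by rank (3076 peaks). Both replicates overlapped 42 of the 44. Of the 44, 22 (50%) overlapped a peak among the highest 6153 of both replicate lists, against 72.7% of all reproducible peaks. At the edge of the distance rule, tRNA:Gln-CTG-1-1 (996 bp), tRNA:Pro-AGG-1-3 (987 bp) and tRNA:His-GTG-1-2 (956 bp) lay just inside, and tRNA:Gln-CTG-2-4 (1005 bp), tRNA:Glu-CTC-2-1 (1046 bp) and tRNA:SeC-TCA-1-1 (1051 bp) just outside. The count of genes was 43 within 500 bp and 105 within 2000 bp.

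Nearby coding promoters were counted for the same peaks. The share of all reproducible peaks with one nearby is not given here, so the counts do not set these peaks apart. Of the 44 summits, 21 had a protein-coding transcription start site (TSS) within 1000 bp and 23 had none, while 31 were nearer to a tRNA start and 13 nearer to a coding TSS. Median signal values were 332 for the 21 and 269 for the 23. Of the 79 tRNA genes with a coding TSS within 1000 bp, 24 (30.4%) had a reproducible summit, against 43 of 211 (20.4%) without one, and the first share lies near the 30.2% of coding genes. In the pooled list this difference was small, with 60 of 79 (75.9%) against 151 of 211 (71.6%). Coding gene starts with a tRNA start within 1000 bp had a reproducible summit in 20 of 55 cases (36.4%) and a pooled one in 39 (70.9%), against 30.1% and 54.7% of the other 13890. Inside the span of a coding gene, 22 of 134 tRNA genes (16.4%) had a reproducible summit, and outside 45 of 156 (28.8%), with pooled shares of 70.1% and 75.0%. In the replicate lists the shares inside and outside differed by less than 1 percentage point (72.4% and 71.8% in replicate 1, 71.6% and 71.2% in replicate 2).

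The highest peak near a tRNA gene (3R, 8669218 to 8669530) had a signal value of 1200.1 in the pooled call, 569 in replicate 1 and 687 in replicate 2. Its summit was 179 bp upstream of tRNA:Tyr-GTA-1-8, a tyrosine tRNA gene with an intron, and 265 bp from a TSS of CG8036. The next (2R, 12335095 to 12335370) reached 1128, with 555 and 557 in replicates 1 and 2, and lay 195 bp upstream of tRNA:His-GTG-1-3 but only 55 bp from a TSS of CG8490. The Tyr and His peaks ranked 412 and 455 in the pooled list, and in both replicates they stood among the highest 620.

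The next (X, 3427630 to 3427918) was the highest with no coding TSS nearby. It reached 982, with 577 and 443 in replicates 1 and 2, and its summit was 245 bp upstream of tRNA:Gln-TTG-2-1. The nearest coding TSS, of CG14269, was 8039 bp away. This gene's sequence occurs once among the 290, as do those of tRNA:Tyr-GTA-1-8, with its intron included, and tRNA:Lys-TTT-1-1. The bases centred on the summits of the Gln and Tyr peaks are shown because the first is the highest with no coding TSS within 1000 bp and the second the highest of all 44. They lie at chrX:3427718-3427818 and chr3R:8669303-8669403 on dm6, plus strand.

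Gln peak: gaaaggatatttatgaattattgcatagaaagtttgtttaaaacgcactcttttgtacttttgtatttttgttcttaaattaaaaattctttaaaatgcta
Tyr peak: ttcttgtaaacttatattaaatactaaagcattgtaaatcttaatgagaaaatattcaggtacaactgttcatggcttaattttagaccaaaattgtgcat

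Neither window held the Cnc-Maf motif TGACNNNGC on either strand, hence no capitals, and G and C made up 21.8% of the Gln window and 25.7% of the Tyr window. The motif lay in 2 of the 44 windows (4.55%), those of the tRNA:Trp-CCA-2-2 peak (18639236 to 18639599) and of a tRNA:Arg-ACG-1-1 peak (6141488 to 6141851), both on 2R. It was in 2.73% of all reproducible windows. Among pooled summits near tRNA genes 3.14% of windows held it, against 2.45% of all pooled windows. Mean G and C content was 35.0% in the 44 windows and 34.4% in all reproducible windows.

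Of the 10 highest peaks, 4 had no coding TSS within 1000 bp. Besides the Gln peak these were at tRNA:Ala-TGC-2-1 (2R, 732, with 403 and 373 in replicates 1 and 2), tRNA:Lys-TTT-1-1 (2L, 591, with 358 and 220.1) and tRNA:Glu-TTC-1-5 (2R, 565, with 275 and 271). The Ala summit lay 133 bp downstream of the start, past the gene, and the Lys summit 310 bp downstream. Within the lists of replicates 1 and 2, the Lys peak ranked 1256 and 2064, the Ala peak 1043 and 836, and the Glu peak 1865 and 1475.

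In the remaining 4 of the 10, the coding TSS was nearer than the tRNA. The peak 637 bp from tRNA:Arg-TCT-1-1 (887, with 382 and 494 in replicates 1 and 2) was 55 bp from a TSS of CG34228. That 766 bp upstream of tRNA:Val-TAC-1-1 (801, with 365 and 523) was 231 bp from a TSS of lama. The peak at tRNA:Leu-TAA-2-1 (639.9, with 351 and 304) was 201 bp from CG13605. At tRNA:Thr-AGT-1-4 the peak (606, with 362 and 252) was 120 bp from Fntb, which encodes a farnesyltransferase subunit, and 938 bp from the tRNA start.

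Of 23 peaks without a coding TSS, further ones by signal value lay at tRNA:Glu-CTC-3-1 (496), tRNA:Leu-CAA-2-2 (391), tRNA:Cys-GCA-1-3 (376), tRNA:Ser-TGA-1-1 (335), tRNA:Arg-ACG-1-1 (319 and 269), tRNA:Arg-CCT-1-3 (308), tRNA:Thr-AGT-1-1 (275), tRNA:Leu-CAG-1-1 (268), tRNA:Pro-AGG-1-1 (252) and tRNA:Gly-GCC-1-6 (241). The tRNA:Arg-ACG-1-1 gene had 3 reproducible peaks on its upstream side, each overlapping the next. The lowest was at 239, and that at 269 overlapped no peak of replicate 1. Ranks within the replicate lists differed at several of these. At tRNA:Thr-AGT-1-1 they were 3397 in replicate 1 and 10112 in replicate 2 (signal values 174 and 70.8). At tRNA:Arg-CCT-1-3 they were 7489 and 2151 (86.7 and 215). Of the 23, 9 were among the highest 6153 of both replicate lists, against 13 of the 21 with a coding TSS.

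In 17 peaks the summit was within 250 bp of a tRNA start, 10 of them upstream, and 9 of the 17 had no coding TSS within 1000 bp. The closest was 68 bp upstream of tRNA:Leu-TAG-1-2 (3R, 244, with 62.1 and 172 in replicates 1 and 2). That upstream of tRNA:Pro-TGG-1-2 was 85 bp away (222, with 123 and 83.0), and that beside tRNA:Leu-CAG-1-4 was 94 bp downstream of the start (208, with 54.1 and 127). The peak 150 bp upstream of tRNA:Cys-GCA-1-3 (376, with 159 and 155) had 5 tRNA genes within 1000 bp. It ranked 3773 in replicate 1 and 3426 in replicate 2.

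The other peaks of this class lay 103 to 240 bp away. They were at tRNA:Asn-GTT-1-2 (218), tRNA:Ser-AGA-2-4 (228), tRNA:Arg-CCT-1-3 (308), tRNA:Ala-TGC-2-1 (732), tRNA:Trp-CCA-2-2 (374), tRNA:Glu-TTC-1-4 (223), tRNA:Gln-CTG-2-3 (210.1), tRNA:Phe-GAA-1-2 (334) and tRNA:Ser-TGA-1-1 (335). The Phe summit was also 105 bp from a TSS of RpL17, a ribosomal protein gene. The peak at tRNA:Arg-ACG-1-4 (233) was 248 bp from the start, and those at Tyr, His and Gln are given above.

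**Figure D4:**
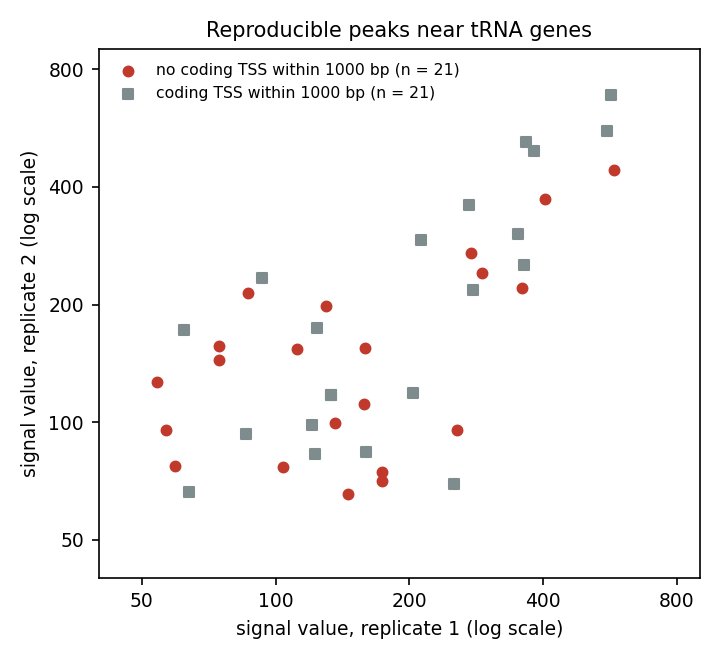
Each point is 1 of the 42 reproducible peaks near tRNA genes that overlapped a peak in both replicates, with its signal value in replicate 1 and replicate 2 on log axes, marked by whether a coding TSS lies within 1000 bp of the summit. The 3 highest pooled peaks lie at the upper right in both replicates, and the lower points scatter widely between replicates. A common scale of the 2 axes is not known.

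By isotype, reproducible summits were spread over 20 of 22 classes, with initiator and elongator methionine genes counted apart. Histidine genes had the highest share, 3 of 5 genes, through 2 peaks, followed by cysteine with 3 of 7 genes, through 1 peak, tryptophan with 3 of 8 and leucine with 8 of 22. At the low end threonine had 2 of 17 genes and phenylalanine 1 of 8. Aspartate genes had 0 of 14 and the single selenocysteine gene none. Classes of so few genes that share peaks do not order firmly.

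Aspartate genes were not without signal. Of the 14, 8 had a pooled summit and 10 had a summit in both replicate lists. Near tRNA:Asp-GTC-1-4 and tRNA:Asp-GTC-1-5, which shared a peak, the pooled signal value was 204, with 84.1 and 92.0 in replicates 1 and 2, while the lowest reproducible peak of all had 206. Of the 14 genes, 8 had a coding TSS within 1000 bp. In the pooled list the share was highest at 16 of 17 alanine genes (94.1%), 10 of 11 isoleucine genes (90.9%) and 9 of 10 asparagine genes (90.0%), besides the single selenocysteine gene. It was lowest at 4 of 7 cysteine and 8 of 14 aspartate genes (57.1% each). All 45 pairs of isotype and anticodon had at least 1 gene with a pooled summit, and 12 had no gene with a reproducible one.

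**Figure D5:**
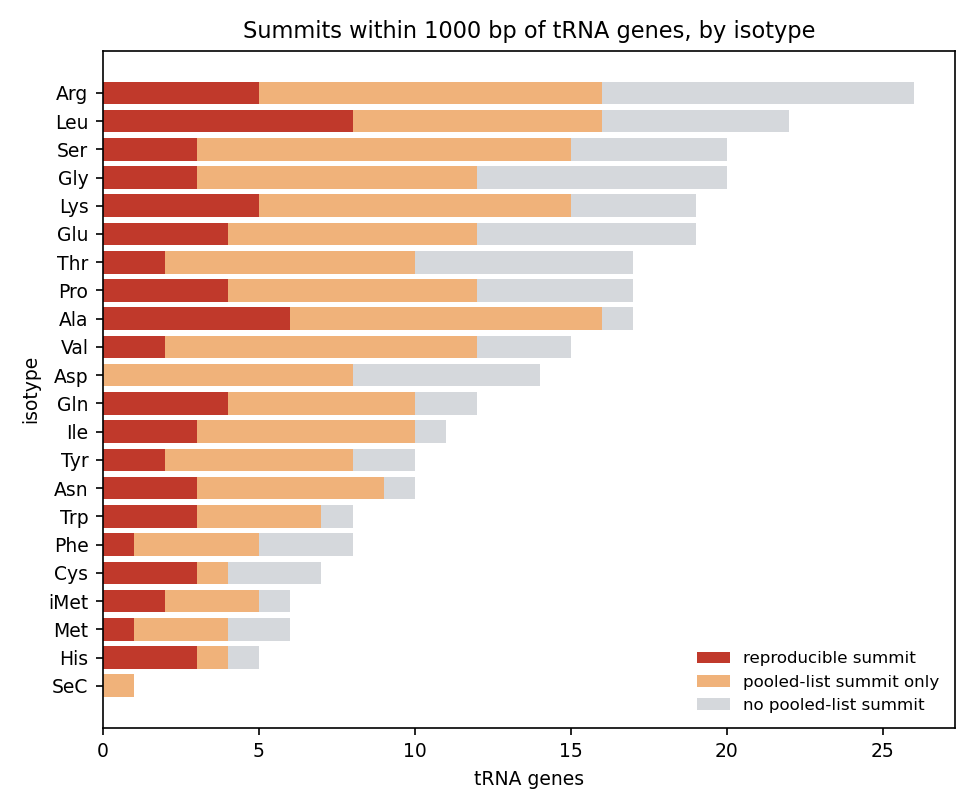
Each bar is 1 isotype, divided into genes with a reproducible summit within 1000 bp, genes with a pooled-list summit but no reproducible one, and genes with neither. Aspartate and selenocysteine have no reproducible summit, and every isotype has genes in the pooled-list class.

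tRNA genes in tandem groups were more often near a pooled peak than solitary ones. Starts at most 5000 bp apart were chained, which gave 144 groups, 76 of them single genes. Of the solitary genes 39 of 76 (51.3%) had a pooled summit, close to the 51.9% of all annotated genes. In pairs it was 60 of 76 genes (78.9%), in groups of 3 to 5 genes 58 of 71 (81.7%) and in groups of 6 or more 54 of 67 (80.6%). For reproducible summits the shares were 17.1%, 22.4%, 26.8% and 26.9% of genes in the same order. A larger group covers more sequence and its genes can share a peak, so these shares do not compare equal lengths. Counted by group, 39 of 144 had a reproducible summit, among them 13 of 76 single genes and 5 of 9 groups of 6 or more.

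The 5 largest groups differed among themselves. The group of 11 Arg, Asn, Ile and Lys genes on 2R (6161535 to 6171759) had a pooled summit at all 11 genes but a reproducible one at 2. That of 11 Ala, Pro, Thr and Val genes on 3R (17617761 to 17631750) had pooled summits at 8 and a reproducible one, shared, at 3. In the group of 7 Glu and initiator Met genes on 2R (19725620 to 19728958) all 7 had a pooled summit and 5 a reproducible one, through 2 peaks, with no coding TSS within 1000 bp of any. The group of 7 Ile and Leu genes on 2R (13430282 to 13432794) also had pooled summits at all 7, and in both replicate lists, with none reproducible. The 7 Arg and Ser genes on X (14014814 to 14017284) stood apart, with pooled summits at 3 genes through 1 peak, and no gene with a summit in both replicate lists.

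Arms differed too. Pooled summits were near 82 of 98 tRNA genes on 2R (83.7%), 61 of 79 on 3R (77.2%), 27 of 41 on 2L (65.9%), 30 of 48 on 3L (62.5%) and 11 of 24 on X (45.8%). The order of 3R and 3L was not kept in the replicate lists, where 3L had 70.8% and 72.9% and 3R 69.6% and 67.1%. For all other annotated genes the pooled shares, by arm in the order above, were 52.4%, 53.4%, 49.7%, 56.5% and 42.5%. Reproducible summits were near 32.7% of tRNA genes on 2R, 13.9% on 3R, 22% on 2L, 27.1% on 3L and 8.33% on X, against 25.4%, 29.9%, 25.0%, 27.1% and 23.3% of other genes. On 2R tRNA genes were thus above other genes in both lists, and on 3R above them in the pooled and below them in the reproducible list.

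Other gene classes put the tRNA shares in context. Small nucleolar RNA genes, many of them inside introns, had a reproducible summit in 49 of 269 cases (18.2%) and a pooled one in 175 (65.1%). In the replicate lists their shares were 69.1% and 70.6%, close to the 72.1% and 71.4% of tRNA genes. Genes of biotype ncRNA had 13.6% and 40.5%, and pseudogenes 6.72% and 25.7%. Other short RNA genes, listed as Pol III transcripts, were looked up after values had been seen. Which polymerase transcribes each of them was not checked. Of 10 such genes, 3 had a reproducible summit and 5 a pooled one, against 26.4% and 51.9% of all annotated genes. U6 spliceosomal RNA genes snRNA:U6:96Ab and snRNA:U6:96Ac shared a reproducible peak (232, with 164 and 126 in replicates 1 and 2), and snRNA:7SKa had one (294). The highest summits within 1000 bp of the snRNA:7SKa start were 209 in replicate 1 and 132 in replicate 2. That of replicate 2 belonged to a peak that overlapped another pooled peak (203). RNaseMRP:RNA (196) and 7SLRNA:CR42652 (169.5) had a pooled summit and no reproducible one. The 7SLRNA:CR42652 summit lay 723 bp from its start. It is also the pooled summit 188 bp upstream of tRNA:Lys-TTT-2-1, already counted among those near tRNA genes. Neither list had a summit within 1000 bp of snRNA:U6:96Aa, snRNA:U6atac, snRNA:7SKb, 7SLRNA:CR32864 or RNaseP:RNA, whose product processes tRNA 5′ ends. Of these 5 genes, snRNA:U6:96Aa had a summit in both replicate lists (164 and 39.7 in replicates 1 and 2) and snRNA:U6atac in that of replicate 1 (27.6).

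Genes for the Pol III machinery are protein-coding and were read at their own starts. Of 26 genes, some coding for subunits shared with other polymerases, 16 had a reproducible summit within 1000 bp of the start and 20 a pooled one (61.5% and 76.9%), against 30.2% and 54.8% of all protein-coding genes. Bdp1 had the highest (2493 in the pooled call, 1428 and 1033 in replicates 1 and 2), followed by Brf (2367, with 1331 and 1027). Polr2H, a subunit of several polymerases, had 1719.6 and Polr2F 848. La, which binds the ends of new Pol III transcripts, had 287. Maf1, the repressor of Pol III, had a pooled summit (100.2, with 62.6 in replicate 1) and no reproducible one. The same held for Trf (82.9, with 64.2 in replicate 1), neither had a summit in replicate 2, and Tbp had none in any list.

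Of 17 tRNA maturation genes matched by symbol, 8 had a reproducible summit and 11 a pooled one (47.1% and 64.7%), against 30.2% and 54.8% of all protein-coding genes. RNaseZ, the 3′ end nuclease, had 739 (368 and 379 in replicates 1 and 2), and the methyltransferase gene Nsun2 454 (270.2 and 176). The ligase gene RtcB had 262 (58.3 and 146). The splicing endonuclease gene Tsen34 had 364, while Tsen54 had a pooled summit (144, with 51.2 and 44.1 in replicates 1 and 2) and no reproducible one. Mt2, another tRNA methyltransferase gene, and Adat1, a tRNA deaminase gene, had no summit in any list.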

How the data were processed

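Peaks from 2 biological replicates of 1 group were used on dm6, as 1-based coordinates. Per the deposited file lists, the authors made each replicate list and the pooled list from alignments plus 1 further file, the same sources as their control-normalised tracks, and took the reproducible list from both replicate lists plus a list not analysed here. No source used here names the aligner, the caller, their versions or the IDR cut-off. The deposited signal value (column 7) and −log10 q value (column 9) are the authors' own. Signal values were ranked and summarised within a list alone, and replicate values given side by side are not on a known common scale. All 6153 reproducible peaks stand unchanged in the pooled list and are its 6153 highest by signal value. The pooled list and each replicate list held exactly 30000 peaks, so their length says nothing of the number of sites. Read depth is unknown.

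Gene starts came from Ensembl release 115, transposable elements left out. Sequence was RefSeq Release 6, and in all 290 tRNA genes it held the named anticodon. Counting used Python 3.11.15 and scipy 1.17.1, was tested on simulated data, and gave the same 67 genes and 44 peaks with bedtools 2.31.1. A replicate value is the highest signal among overlapping peaks (at least 1 bp). For machinery, tRNA maturation and listed Pol III transcript genes it is the highest summit within 1000 bp of the start. That need not be the same peak. Motif windows spanned 50 bp either side of a summit.

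Members and lists were chosen with earlier results of these data known. Named peaks are the 10 highest, all within 250 bp of a tRNA start, up to 15 with no coding TSS, the 5 largest groups and the extreme isotypes. The looser A and B box forms, the list of other Pol III transcripts and the pooled-list comparison with coding genes were added after seeing the data. The gene symbol TRMT1 matched no gene. The dm3 lists were not used. Values of some listed genes are not reported here.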

Additional observations from a re-analysis of the deposited data

How the results depend on the processing

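The count of 67 tRNA genes with a reproducible summit became 43 within 500 bp, 105 within 2000 bp, 28 with the upper part of the list by signal value and 15 when the peak had to overlap the gene. The 44 distinct peaks became 29, 72 and 16 under the first 3 of these. With a replicate left out, taking the highest 6153 peaks of the other, there were 48 to 59 genes, 31 to 36 peaks and 30 to 32 groups, against 39, and the upper part of the list gave 16 groups. The share with a coding TSS nearby exceeded that without by 10 percentage points, by 18.5 within 500 bp, 12.0 within 2000 bp and 8.57 to 10.3 with a replicate left out. The median summit position, -121 bp, was -68 bp within 500 bp and -115 to -79.5 bp with a replicate left out. Counting from the nearest base of the gene, other chaining distances and 1 start per coding gene moved these values little.

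The following settings were chosen after seeing the data. In the pooled list the tRNA share exceeded the coding share by 18.0 percentage points. The direction turned in the reproducible list (-7.05). The excess was 0.29 within 250 bp, 14.1 within 500 bp and 17.5 within 2000 bp, 6.28 with the highest 12000 pooled peaks and 14.3 with the highest 18000. It was 29.3 among genes without a reproducible summit, 9.1 with 1 tRNA gene per group, 16.8 for tRNA genes with no coding TSS nearby, 12.5 for sequences found once, and 16.0 to 16.1 with a replicate left out. The causes were not tested. Read depth and read placement at copied genes are unknown and limit all counts.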
